A study of Mus musculus with 188 samples.

Results

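Hemoglobin bound to haptoglobin (HbHp) was given to mouse brain slice cultures at 200 µM or at 400 µM, and the question was how the mRNA of the slices differed between both doses after 24 h and after 48 h. The comparison used 25 of the 188 libraries of the series, all labelled as one batch, here batch 3, and round 2 of the cultures. A library was taken when its title, its treatment tag and its library name gave the same dose and time. At 24 h, 8 libraries had received 200 µM and 4 had received 400 µM. At 48 h, 8 had received 200 µM and 5 had received 400 µM.

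The slices were organotypic cultures, in which coronal sections of 150 µm from adult C57BL/6J mice of both sexes keep neurons and glia in place on a porous membrane, and they were exposed from day 7 in culture. All mice were wild type, and no group carried a transgene or a deletion. The study used stroma-free human Hb and human plasma Hp of the 1-1 type in slight molar excess, so both proteins rose together from the lower to the higher dose. The series also holds untreated slices, slices given Hp alone and slices given Hb without Hp, and their values are set beside the members where they help. Such slices have no blood flow and receive no circulating cells, so they represent the tissue behind an open blood-brain barrier and not a whole animal.

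In each library name a letter, F or M, and a number follow the dose, and libraries are named by them here. The summed level of Y-linked genes was at most 0.138 CPM (counted reads scaled to a common library size) in the 13 F libraries and between 144 and 196 CPM in the 12 M libraries. At 400 µM the 24 h group held F1, F2, F3 and M3, and the 48 h group held F1, F2, M1, M3 and M4, whereas each 200 µM group held 4 F and 4 M libraries. The labels do not say whether libraries came from separate animals, so every p below measures the spread between libraries, which may be technical. The 25 libraries held 22564146 to 33153875 counted reads each, with a median of 28218853, and no pair within a group was alike within sampling noise.

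Haptoglobin is the plasma protein that binds hemoglobin released from red blood cells and carries it to macrophages, which take up the complex through the receptor CD163. Inside cells the heme is opened by heme oxygenase 1, and the freed iron is stored in ferritin or exported by ferroportin. Heme and oxidative stress release the transcription factor NRF2, which switches on glutathione and quinone-detoxifying enzymes, while damaged proteins release HSF1, which switches on the HSP70 chaperones. Immediate early genes such as Fos and Jun encode the AP-1 transcription factor and answer growth factor, stress and cytokine signals within minutes to hours.

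Of the 15722 genes tested, 36 differed between 400 µM and 200 µM with both times together, 28 of them higher and 8 lower at 400 µM (edgeR's quasi-likelihood F test, Benjamini-Hochberg adjusted p under 0.05). These were 0.229% of the genes tested, 0.178% higher and 0.0509% lower. This fit took all libraries as separate. When libraries that share a letter and number were instead treated as linked, 0 genes passed with both times together and 0 at 24 h. Whether such libraries are linked is not settled, so the 36 calls hold only if they are not. The raised genes included AP-1 genes (Fos, Fosl1, Jun), both inducible HSP70 genes (Hspa1a, Hspa1b), the cytokine gene Il11, the growth factor gene Gdnf, the glutathione transferase gene Gsta3 and Alas1, which makes the enzyme that starts heme synthesis. Over all genes the median log2 fold change was -0.0029 and 48.7% were positive.

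The sequences just before the start sites of 4 raised genes of different kinds are printed here because each holds the letters that a factor of its pathway is known to bind. They come from the RefSeq table of build GRCm38.p6, were matched by symbol, and run 5′ to 3′ on the strand of the gene over the 250 bases before the start. Capitals mark the motif, which was searched on both strands. Of the 28 raised genes 23 had such a window, and of the 8 lowered genes 6 had one.
Hspa1b (minus strand, chr17:34959239-34959488): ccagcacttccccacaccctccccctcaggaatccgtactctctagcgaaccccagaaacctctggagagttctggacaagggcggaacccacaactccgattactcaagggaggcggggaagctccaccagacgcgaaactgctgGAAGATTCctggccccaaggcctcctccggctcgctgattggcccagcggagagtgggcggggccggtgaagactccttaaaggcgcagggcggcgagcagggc
Fos (plus strand, chr12:85473640-85473889): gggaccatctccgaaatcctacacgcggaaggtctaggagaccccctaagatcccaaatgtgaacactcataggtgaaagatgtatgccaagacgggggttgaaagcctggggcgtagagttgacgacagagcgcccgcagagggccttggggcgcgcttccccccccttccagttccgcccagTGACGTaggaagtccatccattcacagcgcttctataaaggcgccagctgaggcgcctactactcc
Il11 (minus strand, chr7:4778142-4778391): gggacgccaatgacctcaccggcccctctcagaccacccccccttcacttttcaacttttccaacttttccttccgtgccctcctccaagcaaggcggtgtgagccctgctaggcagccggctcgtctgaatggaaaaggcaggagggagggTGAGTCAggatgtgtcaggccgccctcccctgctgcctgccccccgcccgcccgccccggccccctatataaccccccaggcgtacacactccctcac
Gsta3 (plus strand, chr1:21240335-21240584): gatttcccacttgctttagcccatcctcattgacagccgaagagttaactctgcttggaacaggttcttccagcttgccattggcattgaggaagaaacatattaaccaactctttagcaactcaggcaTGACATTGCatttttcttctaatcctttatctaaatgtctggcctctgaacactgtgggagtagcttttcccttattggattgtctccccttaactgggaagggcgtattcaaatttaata

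In Hspa1b the capitals are a match to the core of the heat shock element, GAANNTTC or TTCNNGAA, beginning at position -104 from the start. In Fos they are the core of the cyclic AMP response element, TGACGT, at position -66. In Il11 they are an AP-1 site, TGANTCA, at position -98 in 1 of its 2 start windows, and in Gsta3 they are the core of the antioxidant response element, TGACNNNGC, at position -121. The windows of Hspa1b and Hspa1a differed at 3 of 250 positions, and the heat shock element stood at the same place in both. These letters are common: of the 32851 windows in the table, 12.8% held the heat shock core, 6.75% the AP-1 site, 6.47% the cyclic AMP core and 10.2% the antioxidant core. Among the 15155 windows of genes tested the shares were 10.1%, 4.84%, 8.94% and 11.5%, and among the 36 windows of raised genes 19.4%, 8.33%, 25% and 25%. These 36 windows came from 23 genes, with 5 from Egr2 alone, so they are not independent. Among the 8 windows of lowered genes the shares were, in the same order, 0%, 0%, 12.5% and 0%. A further motif searched, the CArG box, stood in 13.9% of raised windows, from 2 genes, and in 1.13% of windows of genes tested. Matches are descriptions of the sequence and say nothing about binding.

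The libraries of 400 µM at 24 h did not form a uniform group, and those of 48 h were uneven too. Chi-square per degree of freedom between libraries of a group grows as they differ more. It was 31.2 to 63.1 between M3 and the others of 400 µM at 24 h. For M1 of 200 µM at 48 h it was 118 to 164, and for M3 of 400 µM at 48 h it was 38.3 to 91.8. By this measure M3 of 48 h stood further from its group than M3 of 24 h did. It was not among the libraries left out together below, and without it 45 genes passed with both times together. In F1 and F2 of 24 h all 28 raised genes stood above every 200 µM library of that time, and in F3 24 of them did. In M3 4 did. Raised and lowered genes were called from these same libraries, and such counts were not made over all genes tested. They therefore describe the libraries and are no separate evidence that M3 stood apart. Of the 8 lowered genes, 6, 7 and 6 stood below every 200 µM library of 24 h in F1, F2 and F3 and 1 did in M3. At 48 h the number of raised genes above every 200 µM library ran from 13 in M3 to 27 in M4. All labels of M3 give 400 µM and 24 h, and whether the library holds what they say was not tested, so every value of 400 µM at 24 h carries that doubt. Results that rest on M3 of 24 h are given below with and without it, a choice made after seeing the data, and the 3 libraries that then remain are all F.

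**Figure D1:**
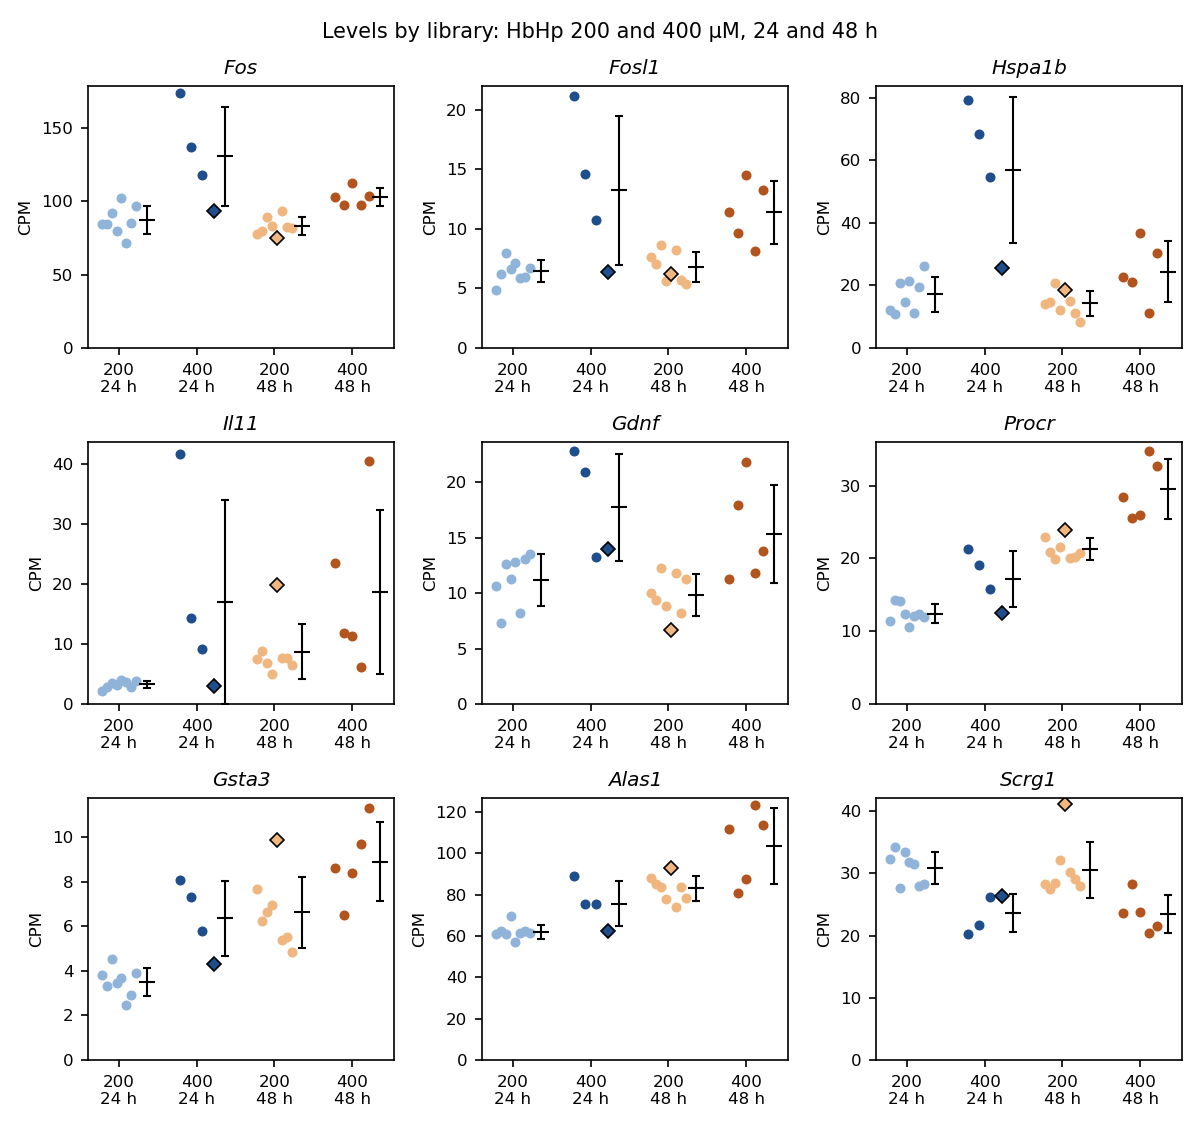
Level in CPM (y axis) of 9 genes in each of the 25 libraries, by dose and time (x axis), with the mean and SD of each group. Diamonds with black edges are M3 of 400 µM at 24 h and M1 of 200 µM at 48 h, which were later left out together. In Hspa1b the F libraries of 400 µM at 24 h reached 54.6 to 79.2 CPM while the diamond stood at 25.5 CPM, within the range of 200 µM.

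Of the 15 genes on the early response list 4 rose, namely Fos, Fosl1, Egr2 and Jun, and the other 11 did not pass. All 15 log2 fold changes were positive, from 0.08 to 0.88 with a median of 0.27. Fos was at 71.6 to 102 CPM (median 85) in the 8 libraries of 200 µM at 24 h and at 74.8 to 93.7 CPM (median 82.4) in the 8 of 48 h. At 400 µM it was at 173, 137, 118 and 93.4 CPM in F1, F2, F3 and M3 of 24 h, and at 103, 97.4, 113, 97.8 and 104 CPM in F1, F2, M1, M3 and M4 of 48 h. Only M3 lay inside the 200 µM range at 24 h, and at 48 h the doses did not overlap. Fos rose 1.35-fold (log2 0.43 ± 0.07 SE, edgeR adjusted p = 0.0159).

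Fosl1, which encodes the AP-1 subunit FRA-1, had 4.86 to 8.02 CPM (median 6.44) at 200 µM and 24 h and 5.34 to 8.66 CPM (median 6.62) at 48 h. At 400 µM its level was 21.2, 14.6, 10.8 and 6.41 CPM in F1, F2, F3 and M3 of 24 h, and 11.4, 9.62, 14.5, 8.12 and 13.3 CPM in F1, F2, M1, M3 and M4 of 48 h. All but M3 at either time exceeded every 200 µM library. The rise was 1.84-fold (log2 0.88 ± 0.14 SE, edgeR adjusted p = 0.00961). Untreated slices of the same culture round, of which 2 of the 3 at 24 h and 1 of the 2 at 48 h came from batch 2 and the HbHp libraries all from batch 3, had 4.70 to 8.06 CPM of Fosl1 at 24 h (n = 3) and 1.96 and 3.29 CPM at 48 h (n = 2). Egr2, a zinc finger factor induced by serum and cytokines, rose 1.46-fold from medians of 5.62 and 6.56 CPM at 200 µM, and Jun, the partner of FOS, rose 1.19-fold from medians of 147 and 141 CPM (edgeR adjusted p = 0.0350 each).

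Dusp5, Dusp4, Gadd45b, Maff, Tnfaip3 and Ppp1r15a also rose, of which Dusp4, Maff, Tnfaip3 and Ppp1r15a were named after their values were seen. Dusp5 and Dusp4 encode phosphatases that switch off ERK, and they rose by 0.65 ± 0.14 and 0.36 ± 0.08 on the log2 scale (SE; edgeR adjusted p = 0.0350 and 0.0475). Gadd45b, which encodes a stress sensor upstream of p38, rose 1.52-fold, and Maff, which encodes a small MAF protein, rose 1.43-fold. Tnfaip3, which encodes the NF-κB inhibitor A20, rose 1.33-fold. Ppp1r15a, which encodes the subunit that directs a phosphatase to eIF2α, rose 1.26-fold. Among these 6 genes, Dusp4 was the one whose doses did not overlap at 48 h, with 17 to 26.1 CPM at 200 µM and 29.9, 29, 28.5, 31.6 and 34.7 CPM in F1, F2, M1, M3 and M4 of 400 µM. Ppp1r15a was the one whose doses did not overlap at 24 h, with 41.1 to 53.3 CPM at 200 µM and 76.4, 70.5, 60.5 and 54.4 CPM in F1, F2, F3 and M3.

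Both inducible HSP70 genes rose. Hspa1b, whose protein refolds damaged proteins, had 11 to 26.3 CPM (median 17) at 200 µM and 24 h, and 79.2, 68.5, 54.6 and 25.5 CPM in F1, F2, F3 and M3 of 400 µM. After 48 h it had 8.40 to 20.8 CPM (median 14.4) at 200 µM and 22.8, 21.2, 36.7, 11.1 and 30.4 CPM in F1, F2, M1, M3 and M4 of 400 µM. Both M3 libraries lay inside the range of the lower dose and the other 7 libraries of 400 µM lay above it. Hspa1b rose 2.35-fold with both times together (log2 1.23 ± 0.21 SE, edgeR adjusted p = 0.0159). At 24 h its step was 1.72 ± 0.28 on the log2 scale (edgeR adjusted p = 0.0330), and at 48 h it was 0.77 ± 0.27 (edgeR adjusted p = 0.638).

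Hspa1a followed with 1.20 ± 0.22 on the log2 scale (edgeR adjusted p = 0.0210). Both genes encode nearly the same protein from nearly the same sequence, and how the counting shared reads between them is not known, so their separate values are uncertain. Untreated slices, partly from another batch as said above, had 17.8, 19.2 and 39.2 CPM of Hspa1b at 24 h. Slices given 400 µM Hp alone had 13.9 to 29.6 CPM (n = 6). Both overlapped the 200 µM HbHp range. The 11 other genes of the heat shock list did not pass, and the median over all 13 was 0.01 on the log2 scale.

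Il11, which encodes a cytokine of the interleukin 6 family, had the largest fold change of the 36 genes. Its level was 2.21 to 4.03 CPM (median 3.39) at 200 µM and 24 h and 41.7, 14.4, 9.12 and 2.98 CPM in F1, F2, F3 and M3 of 400 µM. At 48 h it was 5.03 to 19.8 CPM (median 7.58) at 200 µM and 23.5, 11.9, 11.3, 6.16 and 40.5 CPM in F1, F2, M1, M3 and M4 of 400 µM. The doses overlapped at both times. At 48 h the value of 19.8 CPM at 200 µM was that of M1, and M3 of 400 µM also lay inside the range of the other 7 libraries of 200 µM. Il11 rose 3.25-fold (log2 1.70 ± 0.33 SE, edgeR adjusted p = 0.0284). In untreated slices, partly from another batch as said above, it was at 2.04, 3.65 and 8.49 CPM at 24 h.

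Procr, which encodes the endothelial receptor of protein C, had, with Fosl1, the smallest adjusted p of all genes tested. It was at 10.6 to 14.3 CPM (median 12.2) at 200 µM and 24 h and at 21.3, 19, 15.8 and 12.5 CPM in F1, F2, F3 and M3 of 400 µM. At 48 h it was at 20.0 to 23.9 CPM (median 20.8) at 200 µM and at 28.4, 25.6, 26, 34.8 and 32.8 CPM in F1, F2, M1, M3 and M4 of 400 µM, with no overlap. It rose 1.38-fold (log2 0.47 ± 0.07 SE, edgeR adjusted p = 0.00961), by 0.46 at 24 h and 0.47 at 48 h. Gdnf, which encodes a survival factor for dopaminergic and motor neurons, rose 1.57-fold (log2 0.65 ± 0.13 SE, edgeR adjusted p = 0.0284). Its levels at 400 µM were 22.8, 20.9, 13.2 and 14 CPM in F1, F2, F3 and M3 of 24 h and 11.3, 17.9, 21.8, 11.8 and 13.8 CPM in F1, F2, M1, M3 and M4 of 48 h, against 7.29 to 13.5 CPM and 6.71 to 12.3 CPM at 200 µM, so that the doses overlapped at both times. Pdgfa, which encodes a growth factor for oligodendrocyte precursors, rose 1.21-fold and did not overlap between doses at 48 h.

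Clec4d, which encodes a C-type lectin receptor of myeloid cells, was at 49 to 68.3 CPM (median 58.2) at 200 µM and 24 h and at 124, 97.9, 79.7 and 62.4 CPM in F1, F2, F3 and M3 of 400 µM. At 48 h its level was 92.7 to 202 CPM (median 102) at 200 µM and 178, 138, 136, 190 and 213 CPM in F1, F2, M1, M3 and M4 of 400 µM. It rose 1.51-fold (log2 0.60 ± 0.12 SE, edgeR adjusted p = 0.0336). The 12 markers of disease-associated microglia, of which none passed (11 positive, median log2 fold change 0.12), summed at 24 h to 23459, 20041, 22180 and 13558 CPM in F1, F2, F3 and M3, against 14541 to 19279 CPM at 200 µM. At 48 h they summed to 42186, 27046, 23577, 16920 and 39613 CPM in F1, F2, M1, M3 and M4, against 22262 to 34942 CPM. The part of these cells in the step of Clec4d was not tested. Cd274, which encodes the checkpoint ligand PD-L1, rose 1.44-fold, Pim1, a kinase gene induced through STAT signals, rose 1.37-fold, and Sdc1, which encodes the proteoglycan syndecan 1, rose 1.31-fold. On the inflammatory activation list, 28 of 29 genes had a positive log2 fold change with a median of 0.29, and Il11 and Clec4d rose. M3 of 400 µM at 48 h held 5476 CPM summed over this list, whereas the other 4 libraries of that group held 1647 to 2155 CPM.

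**Figure D2:**
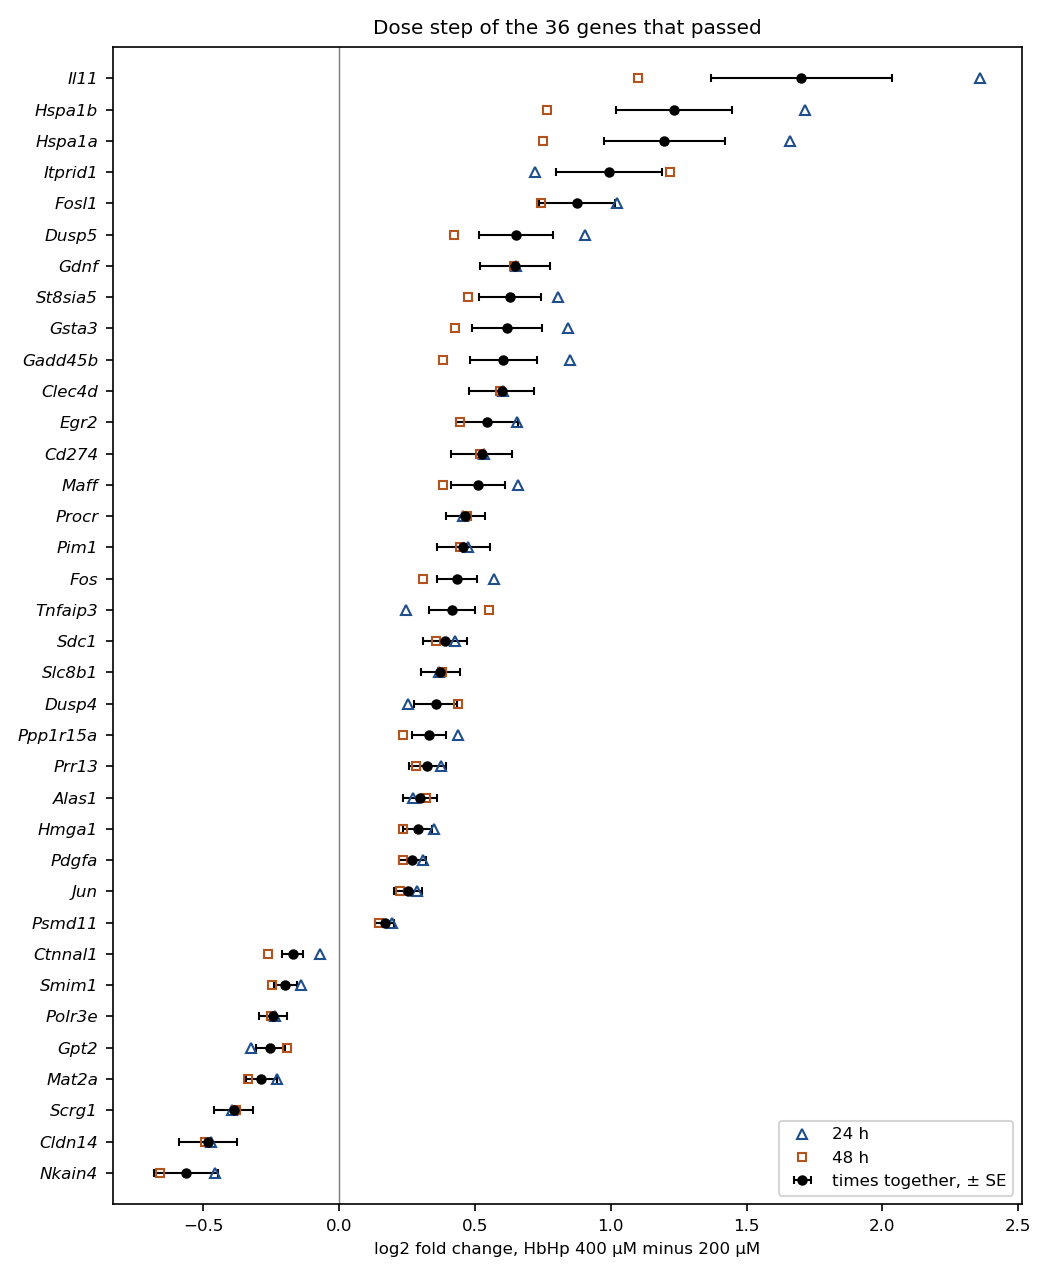
Log2 fold change of 400 µM over 200 µM (x axis) with its SE for the 36 genes that passed with both times together, and the step at 24 h (triangles) and at 48 h (squares). Il11, Hspa1b and Hspa1a reached 1.20 to 1.70, and the 8 lowered genes lay between -0.17 and -0.56.

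Among genes that handle heme, iron and oxidants, Gsta3 and Alas1 rose. Gsta3, a glutathione transferase gene switched on by NRF2, was at 2.47 to 4.53 CPM (median 3.57) at 200 µM and 24 h and at 8.07, 7.31, 5.77 and 4.30 CPM in F1, F2, F3 and M3 of 400 µM. At 48 h its level was 4.84 to 9.86 CPM (median 6.43) at 200 µM and 8.60, 6.51, 8.40, 9.68 and 11.3 CPM in F1, F2, M1, M3 and M4 of 400 µM. The doses overlapped at both times. Gsta3 rose 1.54-fold (log2 0.62 ± 0.13 SE, edgeR adjusted p = 0.0350). Untreated slices held 1.75 to 2.16 CPM at 24 h (n = 3) and 1.02 and 1.87 CPM at 48 h (n = 2), partly from another batch as said above.

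Alas1 had 57.1 to 69.7 CPM (median 61.5) at 200 µM and 24 h and 89.2, 75.4, 75.5 and 62.5 CPM in F1, F2, F3 and M3 of 400 µM. After 48 h it had 74 to 93.1 CPM (median 83.7) at 200 µM and 112, 80.6, 87.6, 123 and 114 CPM in F1, F2, M1, M3 and M4 of 400 µM. It rose 1.23-fold (log2 0.30 ± 0.06 SE, edgeR adjusted p = 0.0350). Of the 10 heme synthesis genes tested, 3 had a positive log2 fold change, the median was -0.06, and Alas1 was the one that passed.

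Hmox1, which encodes heme oxygenase 1, did not pass (log2 0.28 ± 0.10 SE, edgeR adjusted p = 0.276). Its level was 3626 to 4885 CPM (median 3802) at 200 µM and 24 h. Untreated slices, partly from another batch as said above, had 1531, 2055 and 2522 CPM, and slices given Hp alone had 2666 to 3533 CPM (n = 6). At 400 µM Hmox1 was at 6493, 5184, 5413 and 3597 CPM in F1, F2, F3 and M3, where M3 was below every library of 200 µM and the other 3 were above. At 48 h it was 4476 to 6898 CPM (median 5150) at 200 µM and 7781, 5424, 4866, 4250 and 7529 CPM in F1, F2, M1, M3 and M4 of 400 µM. These ranges overlapped widely. F1 and M4, with the highest Hmox1 levels of 48 h, were also the libraries with the largest summed level of disease-associated microglia markers, and at 24 h M3 had the lowest of both. These libraries were picked by their extreme values, and the part of these cells in the level of Hmox1 was not tested.

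Nqo1, the quinone reductase gene regulated by NRF2, had 18.4 to 25.2 CPM (median 20.2) at 200 µM and 40.1, 28.5, 27.6 and 26 CPM in F1, F2, F3 and M3 of 400 µM at 24 h, with no overlap between doses. At 48 h the doses overlapped, with medians of 26 CPM at 200 µM and values of 26.1, 25.9, 30, 35.2 and 34.2 CPM in F1, F2, M1, M3 and M4. The step with both times together was 0.31 ± 0.11 on the log2 scale (edgeR adjusted p = 0.240). Gclm, which encodes the modifier subunit of the enzyme that starts glutathione synthesis, had a step of 0.23 ± 0.05 (edgeR adjusted p = 0.0591), from medians of 203 and 231 CPM. Slc40a1, which encodes ferroportin, had a step of 0.37 ± 0.11 (edgeR adjusted p = 0.149). Its levels at 24 h were 45.5 to 63.3 CPM at 200 µM and 91.5, 75.4, 70.1 and 48.5 CPM in F1, F2, F3 and M3 of 400 µM.

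The other genes that the study singles out gave small or uneven steps, none past the threshold. The step of Slc48a1, which encodes a heme transporter of the lysosome, was 0.07 on the log2 scale with a 95% interval of -0.01 to 0.15. For Gstm1 it was 0.06, for Tnfrsf1a, a TNF receptor gene, 0.08, and for Lrp1, the receptor gene for hemopexin-bound heme, 0.12. Cd163, the receptor gene for HbHp itself, had 1.63 to 4.88 CPM over both 200 µM groups and a step of -0.05 (95% interval -0.41 to 0.31). Gpr84, a receptor gene of activated microglia, had a step of 0.55 (edgeR adjusted p = 0.450), and it was at 24.0 CPM in M3 of 400 µM at 48 h against 3.76 to 5.40 CPM in the other 4 libraries of that group.

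As a list, 25 of 32 NRF2 target genes had a positive log2 fold change, with a median of 0.15, and 1 passed. The glutathione metabolism list had 13 of 17 positive with a median of 0.09, the heme handling list 10 of 15 with a median of 0.05, and the iron handling list 11 of 18 with a median of 0.01, and no member of these passed. The remaining pathway lists were as follows. Of the proteasome genes 19 of 32 were positive (median 0.02) and Psmd11, a subunit of the regulatory particle, rose 1.12-fold. In the ATF4 list 15 of 21 were positive (median 0.07), among p53 targets 11 of 14 (median 0.10), among HIF targets 14 of 16 (median 0.12), among ferroptosis regulators 11 of 12 (median 0.12) and among lysosomal genes 22 of 25 (median 0.07), and none passed. The endoplasmic reticulum stress genes (5 of 15 positive), the interferon response (8 of 14), the aryl hydrocarbon receptor targets (4 of 6) and the metallothioneins (2 of 4) held no gene that passed. A pair of lists leaned downward without a call: 1 of 19 cholesterol synthesis genes was positive (median -0.13), and 0 of 27 cell division genes were (median -0.13).

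**Figure D3:**
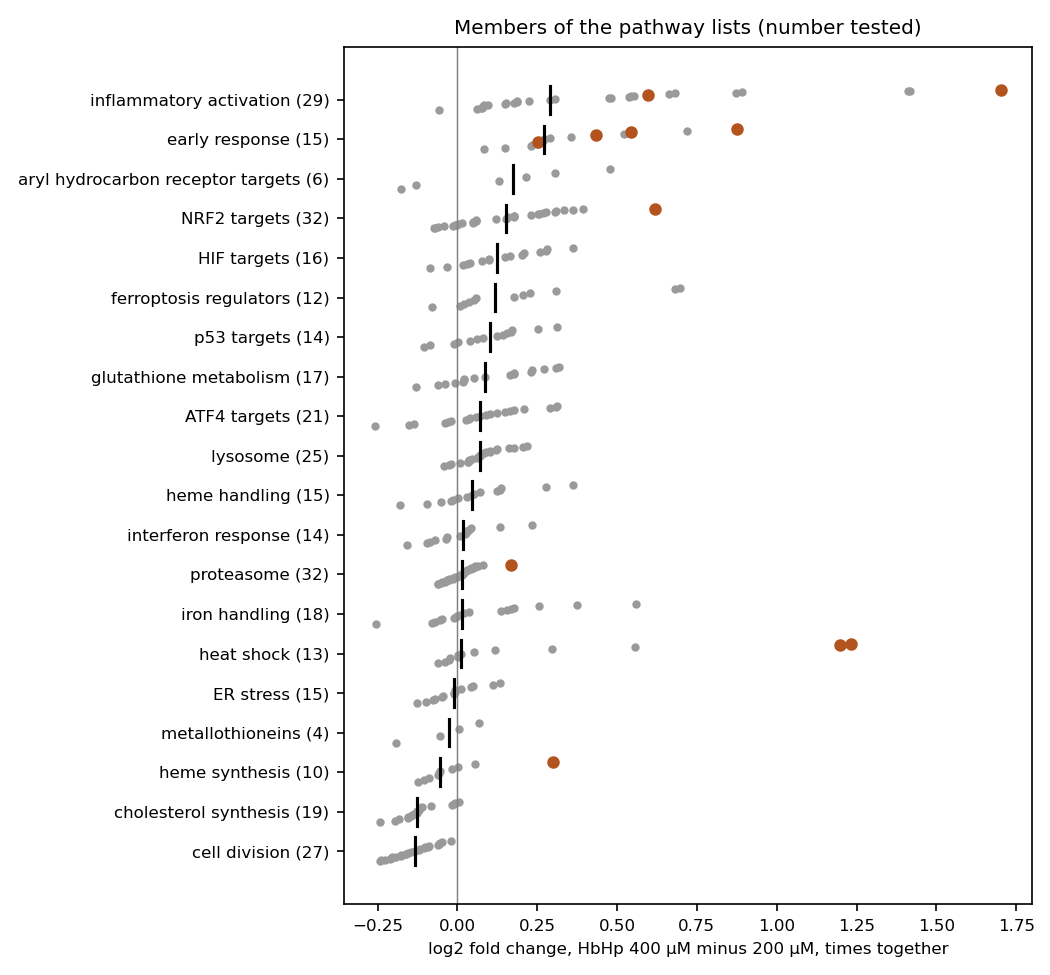
Log2 fold change of 400 µM over 200 µM (x axis) for each tested member of the pathway lists (rows), with the median as a black bar and members that passed in orange. The early response and inflammatory activation lists had medians of 0.27 and 0.29, and cholesterol synthesis and cell division had medians of -0.13 each.

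Further raised genes belong to no list. Itprid1, which encodes a protein of the IP3 receptor-interacting family, rose 1.99-fold from medians under 1 CPM, so its absolute level stayed low at 0.855 to 2.92 CPM in the libraries of 400 µM. St8sia5, a ganglioside sialyltransferase gene, rose 1.55-fold (log2 0.63 ± 0.11 SE, edgeR adjusted p = 0.0210). Slc8b1, which encodes the mitochondrial sodium-calcium exchanger, rose 1.30-fold, and Prr13 rose 1.25-fold. Hmga1, which encodes an architectural chromatin protein, rose 1.22-fold, with 138 to 157 CPM at 200 µM and 226, 207, 170 and 161 CPM in F1, F2, F3 and M3 of 400 µM at 24 h, where the doses did not overlap.

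The 8 lowered genes had log2 fold changes of -0.17 to -0.56. Scrg1, a gene known from prion-infected brain, fell to 0.765 of its level at 200 µM (log2 -0.39 ± 0.07 SE, edgeR adjusted p = 0.0210). It was at 27.7 to 34.2 CPM (median 31.7) at 200 µM and 24 h and at 20.2, 21.7, 26.2 and 26.4 CPM in F1, F2, F3 and M3 of 400 µM, with no overlap. At 48 h it was at 27.5 to 41.1 CPM (median 28.8) at 200 µM and at 23.6, 28.3, 23.7, 20.4 and 21.5 CPM in F1, F2, M1, M3 and M4 of 400 µM, where F2 alone lay inside the lower dose's range. Nkain4, which encodes a protein that interacts with the sodium pump, fell to 0.677, and Cldn14, a tight junction gene, to 0.715 of the level at 200 µM.

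Mat2a, which encodes the enzyme that makes S-adenosylmethionine, was at 396 to 471 CPM (median 454) at 200 µM and 24 h and at 386, 364, 355 and 431 CPM in F1, F2, F3 and M3 of 400 µM. The later time gave 360 to 532 CPM (median 439) at 200 µM and 312, 361, 378, 348 and 313 CPM in F1, F2, M1, M3 and M4 of 400 µM. It fell to 0.821 of the lower dose (log2 -0.29 ± 0.06 SE, edgeR adjusted p = 0.0327). Gpt2, the mitochondrial alanine transaminase gene, fell to 0.840, Polr3e, an RNA polymerase III subunit gene, to 0.845, and Smim1 to 0.872. Ctnnal1, which encodes an α-catenin-like protein, fell to 0.888 and did not overlap at 48 h, with 58.8 to 64.2 CPM at 200 µM and 46.4, 54.6, 52.4, 49.8 and 49.6 CPM in F1, F2, M1, M3 and M4 of 400 µM.

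Taken singly, the times gave few calls. At 24 h Hspa1b alone passed (0.00636% of genes tested), while 1286 genes had an unadjusted p under 0.05 and DESeq2 called 42. At 48 h 0 genes passed in edgeR, where 977 had an unadjusted p under 0.05 and the smallest adjusted p was 0.0505, for Ctnnal1. DESeq2 called 15 at 48 h. The difference between the steps at 48 h and 24 h was tested directly, and 0 genes passed in edgeR (601 at an unadjusted p under 0.05), while DESeq2 called 9. The doses did not overlap at 24 h in 107 genes (0.681% of those tested) and at 48 h in 41 genes (0.261%), and in 0 genes at both. A larger value at one time, as for Hspa1b with 1.72 at 24 h and 0.77 at 48 h, is therefore not shown to differ between times (difference -0.95 on the log2 scale, edgeR adjusted p = 0.9995).

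Leaving out M3 of 400 µM at 24 h changed the counts. Leaving out F1 or F2 of that group instead left 3 and 2 genes with both times together, and 0 at 24 h. M3 was singled out after its values were seen, and removing a discordant library narrows the spread. The adjusted p values of this fit are therefore descriptive. Without M3, 254 genes passed with both times together (1.60% of 15832), 175 higher and 79 lower, and all 36 genes were among them. At 24 h alone 393 passed (2.48%), 268 higher and 125 lower, and at 48 h 0 did. The 3 libraries left at 24 h, all F, were then compared with 8 of both letters. Among the NRF2 targets 11 of 32 rose at 24 h, namely Nqo1, Gclm, Srxn1, Gsr, Pgd, Gsta3, Fth1, Abcc1, Prdx1, Sqstm1 and Blvrb, with Nqo1 at 0.60 and Gclm at 0.34 on the log2 scale (edgeR adjusted p = 0.0411 and 0.0274). Among iron genes Fth1, Slc40a1, Steap1, Steap2 and Heph rose, Slc40a1 by 0.63. Among early response genes 9 of 15 rose and on the heat shock list 4 of 13 did, Dnajb1 and Hspb1 besides the HSP70 pair. Of 27 cell division genes 7 fell, Top2a by 0.59 on the log2 scale.

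Markers of other tissue parts and of microglia differed between the same libraries. Summed over 7 choroid plexus markers, F1, F2 and F3 of 400 µM at 24 h held 1997, 821 and 1488 CPM and M3 held 7.66 CPM, while the 8 libraries of 200 µM ran from 7.53 to 1001 CPM. All 7 choroid plexus markers had a positive step at 24 h (median 1.73 on the log2 scale) and all 7 a negative one at 48 h (median -0.76), and none passed. Meningeal fibroblast markers summed to 1955, 1045 and 1338 CPM in F1, F2 and F3 and 499 CPM in M3, against 437 to 1162 CPM at 200 µM. Endothelial markers summed to 182, 163 and 166 CPM against 119 CPM in M3 and 101 to 139 CPM at 200 µM, and mural markers to 412, 312 and 349 CPM against 185 CPM in M3 and 194 to 260 CPM at 200 µM. The 15 microglial markers summed to 3630, 2831 and 3089 CPM in F1, F2 and F3 and 1948 CPM in M3, against 2054 to 3283 CPM at 200 µM. The part of these cells and tissues in the raised genes was not tested, and in bulk RNA fewer cells of a type and less RNA per cell cannot be told apart.

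The labelled tissue was checked by its markers. The oligodendrocyte gene Mbp and the astrocyte gene Gfap were found in all libraries, Mbp at 10374 to 17852 CPM and Gfap at 2620 to 6371 CPM over the 25 libraries. The 15 neuronal markers summed to 513 to 1001 CPM and none was absent from all libraries, with Rbfox3, the gene of the antigen NeuN, at 1.77 to 7.70 CPM and Snap25 at 9.13 to 56.9 CPM. All 15 together thus stayed far below Mbp alone, though CPM is not divided by gene length. Neuronal mRNA was a small part of what was counted, and which cells carried the dose step was not tested. Erythroid genes gave no testable signal, and Hbb-bt and Alas2 had 0 counts in all 25 libraries. With all libraries no marker gene passed in the dose step with both times together. The fit without M3 of 400 µM at 24 h was chosen after seeing the data, and its calls are descriptive. In it 1.60% of all genes tested passed with both times together and 2.48% at 24 h. Itgam, Itgax and Prkcd rose and Slc6a13 fell with both times together. At 24 h in that fit the myeloid markers Itgam, Clec7a and Lyve1 and the fibroblast marker Lum rose. The vascular markers Pecam1, Flt1, Rgs5 and Kcnj8, and Thy1, Gjb6, Prkcd, Lef1 and Hcrt rose there too, and Olig1 fell. The 7 hypothalamic markers, Hcrt among them, summed to 1.28 to 16.3 CPM in the 4 libraries of 400 µM at 24 h.

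The counts also moved with M1 of 200 µM at 48 h, without which 225 genes passed with both times together. In that library Lrp1 was at 446 CPM against 1392 to 1706 CPM in the other 7, and the NRF2 targets summed to 37973 CPM. With both this library and M3 of 400 µM at 24 h left out, 814 genes passed (477 higher, 337 lower), a leave-out chosen after the values were seen. F libraries alone, 5 against 8, called 200 genes (138 higher, 62 lower), and M libraries alone, 4 against 8, called 0 with 314 genes at an unadjusted p under 0.05. The log2 step of Il11 was 2.21 in F and 0.60 in M libraries, that of Hspa1b 1.53 and 0.79, that of Fos 0.55 and 0.25, and that of Procr 0.44 and 0.42. M3 of 400 µM at 24 h and M1 of 200 µM at 48 h are both M libraries. M3 is the only M library of its group, so at 24 h the letter cannot be told apart from that library. Whether the steps differ between letters was not tested. With the letter as a term 34 genes passed, 33 of them among the 36. Procr and Fosl1 passed whichever single library was left out.

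**Figure D4:**
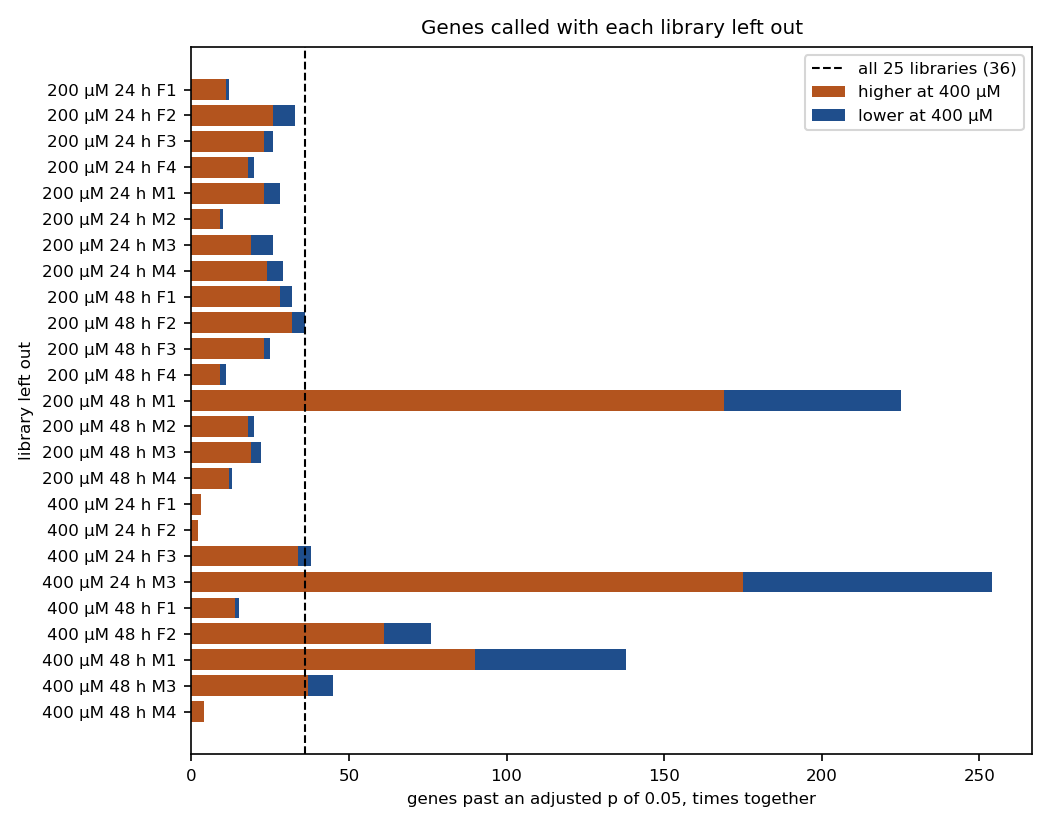
Number of genes past the threshold with both times together (x axis, orange higher and blue lower at 400 µM) when each of the 25 libraries (rows) was left out. The dashed line is the count of 36 with all libraries, and the counts ran from 2 without F2 of 400 µM at 24 h to 254 without M3 of the same group.

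The step in HbHp was compared with the same step in Hb given without Hp, the most similar one in the series, in 40 further libraries from both batches and both culture rounds. For free Hb 0 of 16256 genes passed between 400 µM and 200 µM (144 at an unadjusted p under 0.05). The difference between the steps passed for 12 genes (0.0738%), 10 with a larger step in HbHp (0.0615%) and 2 with a smaller one (0.0123%). The differences on the log2 scale were 1.57 ± 0.32 for Il11, 1.12 ± 0.23 for Hspa1b, 1.11 ± 0.24 for Hspa1a, 0.70 ± 0.14 for Dusp5, 0.52 ± 0.09 for Maff, 0.41 ± 0.08 for Fos and 0.27 ± 0.06 for Jun (SE). Csrnp1, an immediate early gene induced by axin, differed by 0.52 and Fhl3 by 0.35, while Tmem17 and Clvs2 differed by -0.52 and -0.75. Tmem95 differed by 1.12 but had a mean under 1 CPM over the libraries compared. Over the 12 genes the smallest adjusted p in edgeR was 0.0168, for Maff, and the largest was 0.0459, for Tmem17. The count rested on single HbHp libraries of 400 µM. Without F1 of 24 h or M4 of 48 h 0 differences passed, without F2 of 24 h 1 did, and without M3 of 24 h 73 did. With the library code as a replicate block 0 passed.

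Fos was at 51.7 to 82.7 CPM after 200 µM of free Hb at 24 h and at 55.9 to 94.7 CPM after 400 µM (n = 10 each, medians 66.5 and 71 CPM), a step of 0.04 with both times together. Hspa1b was at 3.98 to 13.5 CPM and 5.45 to 21.2 CPM in the same groups (medians 8.66 and 9.61 CPM), a step of 0.13. For other genes the steps were not shown to differ. The difference was 0.18 for Hmox1 (95% interval -0.17 to 0.54), 0.15 for Nqo1 (-0.14 to 0.43), 0.07 for Gclm (-0.11 to 0.25) and 0.40 for Gsta3 (-0.01 to 0.82). Since all HbHp libraries came from 1 batch and the second round, complex and culture round can be separated only through the free Hb libraries. With round 2 libraries alone 0 differences passed.

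**Figure D5:**
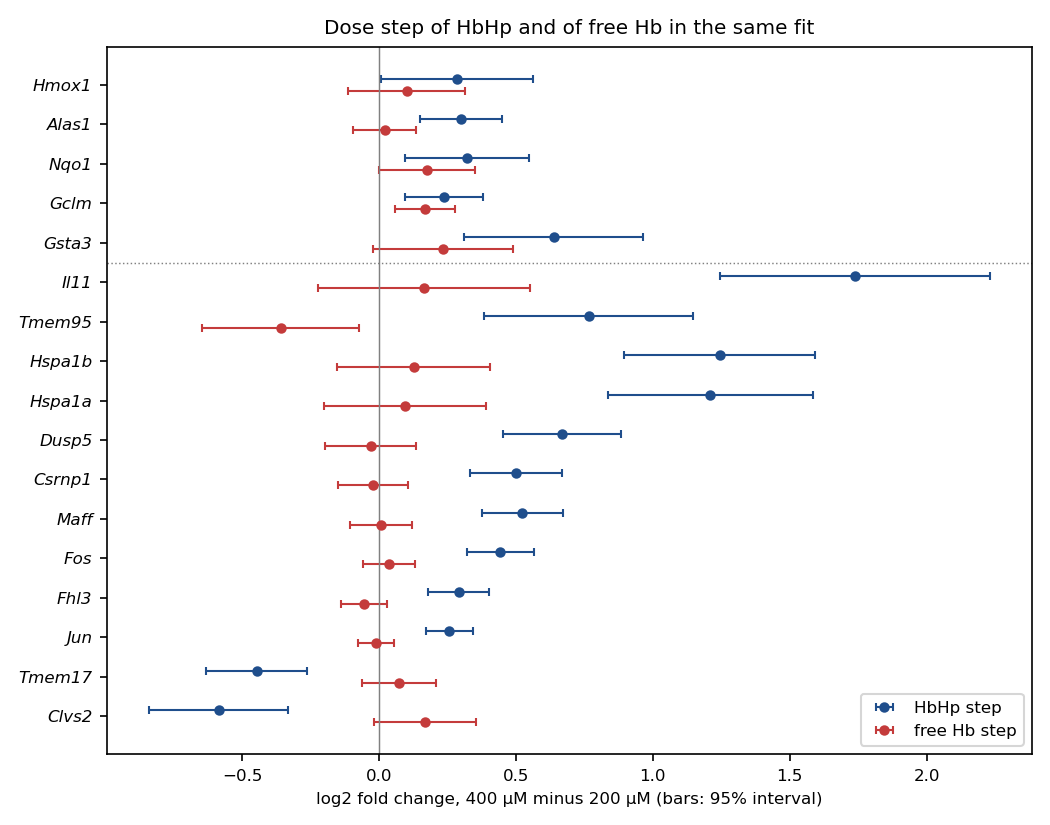
Log2 fold change of 400 µM over 200 µM (x axis) with 95% intervals for HbHp (blue) and free Hb (red) from the same fit. Under the dotted line are the 12 genes whose difference between both steps passed, and over it Gsta3, Gclm, Nqo1, Alas1 and Hmox1. Il11 had a step of 1.74 in HbHp and 0.16 in free Hb, while the intervals of Hmox1 overlapped.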

How the data were processed

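Bulk mRNA libraries (TruSeq) were counted per gene by the authors, who deposited raw read counts without normalization, 25528 gene rows per library, of which 25424 carry a symbol. The submitters' processing notes name featureCounts and build GRCm39. The aligner, the annotation and the strand setting are not given in the sources used here. Groups came from the labels. In the series 21 libraries, 6 of them in the same batch and round, have labels that disagree or leave the treatment unstated and were not used.

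Counts were analysed in R 4.3.3 with edgeR 4.0.16 and limma 3.58.1 (TMM scaling, filterByExpr with a minimum count of 10 and a minimum total of 15, quasi-likelihood F test, Benjamini-Hochberg adjustment over all genes tested, threshold 0.05). The dose step with both times together came from an additive model of time and dose, the steps at each time and their difference from a model of 4 groups, and the comparison with free Hb from a model of 8 groups with batch and culture round as terms. SE was taken from the F statistic, as the size of the log2 change over its root, and 95% intervals reach 1.96 SE to either side. CPM values were scaled by TMM over the 82 libraries used here and are not divided by gene length, so levels are compared within a gene. The model was tested on simulated data with known changes.

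Members and gene lists were chosen with earlier results of these data known. Genes were named when the study singles them out, when they were among the 10 raised most or the 10 lowered most in the dose step (5 for other comparisons) at a mean of at least 1 CPM, when they passed and stood on a list (up to 4 per list), or when they had the largest or smallest value on a pathway list, with values where they bear on a result. Outside this rule, and chosen after their values were seen, are Procr, Pdgfa, Hmga1, Ppp1r15a, Maff, Slc8b1, Tnfaip3, Sdc1, Prr13, Cd274, Pim1, Dusp4, Fhl3, Tmem95, and the genes named in the fit without M3 or as tissue markers. Alternatives were DESeq2 1.42.0, RLE scaling, no filter or at least 10 counts in every library, the library code as a replicate block, the sex letter as a term, all batch 3 libraries of the second round in one fit, each time alone, no round term, the second round only, and each library left out. Fits with the free Hb libraries, of F or M libraries alone, and without both M3 of 24 h and M1 of 48 h were added after seeing the data. Promoter windows are from a RefSeq table of GRCm38.p6, another build than that of the counts, matched by symbol. Precision is limited by 4 and 5 libraries at the higher dose.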

Additional observations from a re-analysis of the deposited data

Results flagged for a closer look

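Each group of 4 to 8 libraries was checked for a library whose gap to its nearest neighbour took up most of the range of its group, for 46 genes and for the summed CPM of 10 lists. Of 224 groups 21 held such a library. Chance gives about 1 in 20 only for independent, normally distributed values. The groups share libraries, and most genes were called from these same libraries, so the count cannot be set against that rate. M1 of 200 µM at 48 h accounted for most of the 21. In it Scrg1 was at 41.1 CPM, Slc8b1 at 22.1, Il11 at 19.8, Clec4d at 202, Sdc1 at 62.7, Nqo1 at 43.3, Gstm1 at 175, Slc48a1 at 543, Hmox1 at 6898 and Lrp1 at 446 CPM, and the NRF2 targets summed to 37973 and the heat shock genes to 4677 CPM. Beyond that library, Jun was at 190 CPM in M1 and Nkain4 at 12.2 CPM in F2 of 400 µM at 48 h. Alas1 was at 69.7 CPM in F4 and Slc40a1 at 63.3 CPM in M2 of 200 µM at 24 h. Lrp1 was at 1096 CPM in M3 of 400 µM at 24 h. In M3 of 400 µM at 48 h Gpr84 was at 24.0 CPM and the inflammatory activation genes summed to 5476 CPM. The cell division genes summed to 1414 CPM in M4 of 200 µM at 48 h, and the choroid plexus markers to 1001 CPM in F3 of 200 µM at 24 h.

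The step from 200 to 400 µM differed between HbHp and free Hb by edgeR's quasi-likelihood test of the difference itself for Il11 (1.57 on the log2 scale), Tmem95 (1.12), Hspa1b (1.12), Hspa1a (1.11), Dusp5 (0.70), Csrnp1 (0.52), Maff (0.52), Fos (0.41), Fhl3 (0.35), Jun (0.27), Tmem17 (-0.52) and Clvs2 (-0.75). Tmem95 had a mean under 1 CPM.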

How the results depend on the processing

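All 36 genes kept their direction in every alternative run for them. Over all named genes, among them genes that had not passed, 2433 of 2947 values kept both direction and side of the threshold. Of the 36 genes, 2 kept their call whichever of the 25 libraries was left out. The median number of such fits in which a gene kept its call was 15.5, and the lowest was 5. DESeq2 called 207, 42, 15, 9 and 24 genes for the step with times together, at 24 h, at 48 h, the difference between times and the difference from free Hb, where edgeR called 36, 1, 0, 0 and 12. RLE scaling called 1 at 48 h, and at least 10 counts in every library called 3 at 24 h and 1 at 48 h. All batch 3 libraries of the second round in one fit called 176 with times together, 18 at 24 h and 9 at 48 h. The sex letter as a term called 0 at 24 h, and so did a fit of 24 h alone. The difference from free Hb was called for 7 genes without a round term and 0 in the second round only. Fitted with the free Hb libraries the step was called for 137 genes, in F libraries for 200 and in M libraries for 0. Without both M3 of 400 µM at 24 h and M1 of 200 µM at 48 h the counts were 814, 1073, 5, 4 and 119. Whether the library codes pair the libraries is not settled. Deviations from the group mean correlated with r from -0.355 to 0.512 in 29 same-code pairs (median 0.0228, 10 over 0.1). For other codes of the same sex letter the median was 0.0882. With the code as a replicate block 0 genes passed with times together, 0 at 24 h, 0 in the difference from free Hb and 1 in the difference between times. Leaving out each library gave 2 to 254 with times together, 0 to 393 at 24 h, 0 to 15 at 48 h, 0 to 1 for the difference between times and 0 to 73 for the difference from free Hb, where HbHp libraries of 400 µM alone were left out. With times together 15 of 25 moved the count by over 1.5 times: at 200 µM F1 (12), F4 (20) and M2 (10) of 24 h and F4 (11), M1 (225), M2 (20), M3 (22) and M4 (13) of 48 h, and at 400 µM F1 (3), F2 (2) and M3 (254) of 24 h and F1 (15), F2 (76), M1 (138) and M4 (4) of 48 h. The cause of these moves was not tested.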
